A study of Mus musculus with 9 samples.

Results

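The early transcriptional response to tumour necrosis factor (TNF-α) was followed in control 3T3 fibroblasts, an immortalised mouse embryonic fibroblast line, as the difference between unstimulated cells and cells given 5 ng per ml of TNF-α for 1 h. The comparison uses 6 of the 9 arrays of the series: 3 arrays of unstimulated control cells (0 ng per ml) and 3 arrays of TNF-treated control cells, each TNF-treated array paired with the unstimulated array that carries the same replicate number. The members are all transcript clusters with exactly 1 gene symbol, taking the cluster with the highest mean for each gene, which gave 19698 genes of 27024 transcript clusters measured. The study asked how the BAF nucleosome remodelling complex takes part in inducible transcription, so the other 3 arrays hold TNF-treated cells that stably expressed 1 short hairpin RNA directed at Brg1 and Brm, from the mouse U6 promoter of a retroviral vector, and had been sorted for high GFP. Those arrays enter here into the estimate of the spread between replicates and of the replicate effects, and into the mean that picks the cluster of a gene. In the fits that leave out 1 control array they also bear on the difference itself. The labels mark the control cells as not knocked down and do not say whether they carried an empty vector. All cultures were subconfluent, and the methods describe 3 biological replicates made on different days.

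TNF-α is an inflammatory cytokine released largely by activated macrophages. Binding to its receptors assembles a ubiquitin-linked signalling complex that activates the IkB kinases and the JNK and p38 MAP kinases. Degradation of the IkB inhibitors then frees NF-kB to enter the nucleus, where it switches on genes for chemokines and cytokines together with genes for its own inhibitors, while the MAP kinases act on AP-1 and on immediate early genes. Fibroblasts answer this signal as tissue sentinels that recruit leukocytes.

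The genes that passed the test after TNF were few and almost all higher. With the replicate number as a block in the limma fit, 72 genes were called higher after TNF (0.366% of the genes tested) and 6 were called lower (0.0305%), at a Benjamini-Hochberg adjusted p under 0.05. The fit without the block called 27 genes higher (0.137%) and 0 lower, and all 27 were among the genes called with the block. Before adjustment, 594 genes were higher and 442 lower by the blocked fit at p under 0.05. At that threshold a share of 0.05 of the 19698 genes would pass without any difference. These unadjusted counts therefore do not by themselves show a wider response. Of the 72 rises, 12 exceeded 2 on the log2 scale (4-fold), 17 lay between 1 and 2, 33 between 0.5 and 1, and 10 below 0.5. The median rise was 0.89. Over all genes the median difference was -0.002, and 48.6% of them lay above 0. The RNA was bulk RNA of whole cultures, in which fewer responding cells and less RNA per cell cannot be told apart.

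Every called gene moved the same way in all 3 replicates. The calls were made from these same arrays, so this and the counts of separated groups that follow are not independent of the calls. The 3 TNF-treated arrays lay above the 3 unstimulated arrays without overlap for 70 of the 72 genes called higher, against 629 of all genes tested (3.19%). The exceptions were Tnip3 and Noct. The 3 TNF-treated arrays lay below the unstimulated arrays for 3 of the 6 genes called lower, against 547 of all genes (2.78%). Among the genes called higher, the paired difference was largest in replicate 1 for 35 genes, in replicate 2 for 26 and in replicate 3 for 11, and the median paired rise was 0.957, 0.875 and 0.845 in replicates 1, 2 and 3. The number of calls depended on single replicates. It was 0 higher and 0 lower without replicate 1, 74 and 2 without replicate 2, and 18 and 0 without replicate 3, while the median rise of the 72 genes was 0.83, 0.89 and 0.95 in the same fits and all 72 stayed above 0. Leaving out 1 control array at a time gave 29, 75 and 30 genes higher without unstimulated arrays 1, 2 and 3 and 15, 48 and 33 without TNF-treated arrays 1, 2 and 3. A set of 15 genes was called in every one of those 6 fits: Cxcl2, Tnfaip3, Ereg, Ch25h, Ccl2, Nfkbie, Rnd1, Slfn2, Ccl20, Ccl3, Nfkbia, Irf1, Cxcl1, Gch1 and Nuak2. Those 6 fits all kept the block and the knockdown arrays. In the fit without the block Ch25h, Slfn2, Gch1 and Nuak2 were not called.

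**Figure D1:**
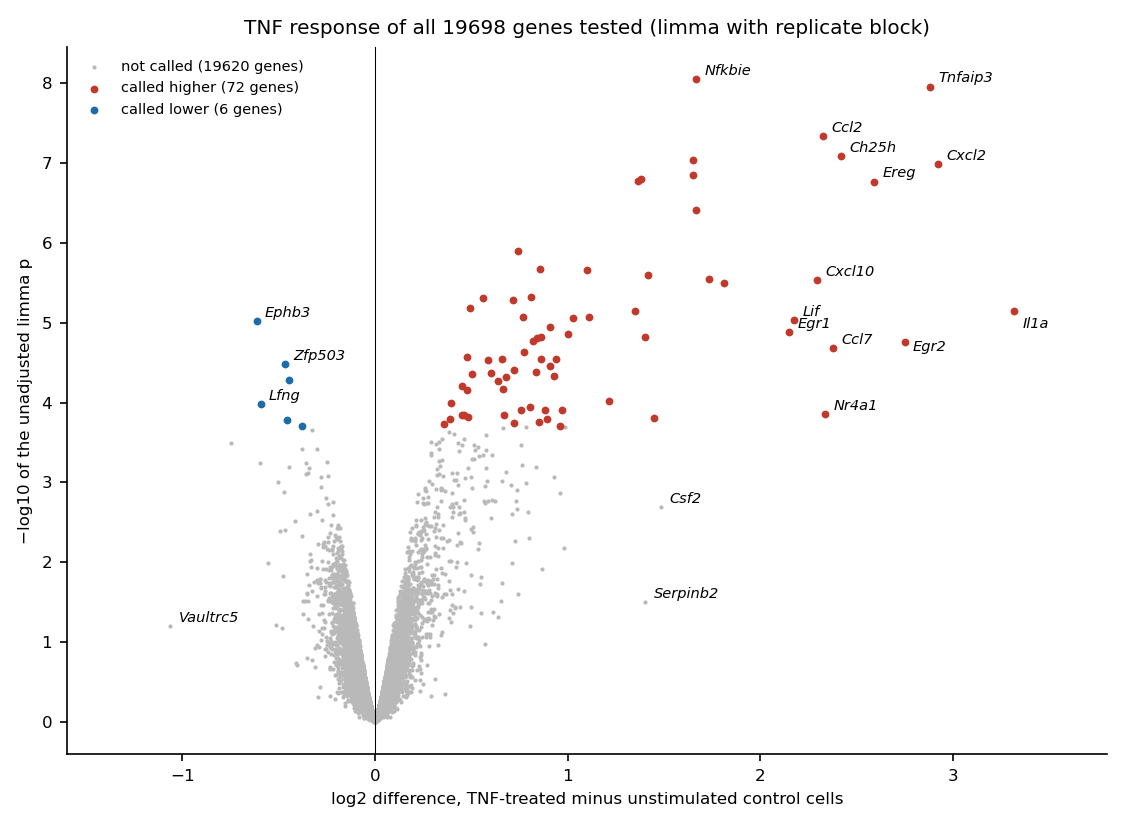
Each point is 1 of 19698 genes, with the log2 difference between TNF-treated and unstimulated control cells on the x axis and the negative log10 of the unadjusted limma p on the y axis. The 72 genes called higher (red) reach 3.32 on the x axis, while the 6 called lower (blue) lie between -0.61 and -0.38.

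Over all transcript clusters, the medians of the 6 control arrays lay between 7.77 and 7.83 and their first quartiles between 6.38 and 6.44. Their correlations with each other lay between 0.993 and 0.998. The first quartile named below is that of the genes tested on each array. Levels below are RMA log2 signals, in which 1 unit is a doubling, and differences are TNF-treated minus unstimulated, with the standard error of the fit. Precision is limited by the number of arrays, since arrays have no read depth. Of 14 fibroblast markers measured, 1 (Lum, a small matrix proteoglycan) lay below the first quartile on every control array. So did 9 of 19 leukocyte markers and 5 of 20 epithelial and endothelial markers. None of these markers was called in either direction, with or without the block, while before adjustment limma put 1 fibroblast marker lower and 0 of the others in either direction at p under 0.05. The leukocyte markers had a median difference of 0.00, and their summed level was 127.2 to 127.5 on the unstimulated arrays and 127.0 to 128.3 on the TNF-treated arrays. The mean levels of the leukocyte markers over the control arrays ran from 5.18 to 9.63. Ptprc, the pan-leukocyte marker CD45, stood at 6.24, 6.23 and 6.30 without TNF and 6.30, 6.37 and 6.35 with it. It was picked after its values were seen.

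Chemokines, secreted proteins that attract leukocytes, gave 4 of the 12 largest rises. Of 34 measured, 7 were called higher and 0 lower, against 0.366% of all genes called higher. Without the block 6 of the 7 were called too, against 0.137% of all genes. The median over all 34 was 0.10, and 29 lay above 0, as did 48.6% of all genes. Cxcl2, a neutrophil attractant, stood at 6.21, 6.36 and 6.27 without TNF and 9.54, 9.36 and 8.69 with it, in replicates 1, 2 and 3 as throughout. All 3 unstimulated arrays lay below the first quartile of their array, and the TNF-treated arrays lay far above them. Cxcl2 rose 7.57-fold (log2 difference 2.92 ± 0.16, adjusted p = 0.000334), which is uncertain in size because whether the unstimulated level exceeded background was not tested.

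The monocyte attractants Ccl7 and Ccl2 rose alongside. Ccl7 stood at 9.50, 9.21 and 9.46 without TNF and 11.42, 12.07 and 11.82 with it. The groups were well apart, with the highest TNF-treated array in replicate 2, and the rise was 5.20-fold (log2 difference 2.38 ± 0.26, adjusted p = 0.0108). Ccl2 stood at 10.99, 10.53 and 11.28 without TNF and 13.23, 13.23 and 13.32 with it. Its unstimulated arrays spread over more than its TNF-treated arrays, which nearly coincided close to the top of the scale (the highest value on any control array was 14.6). Ccl2 rose 5.02-fold (log2 difference 2.33 ± 0.11, adjusted p = 0.000298). Cxcl10, which attracts activated T cells through CXCR3, stood at 9.02, 8.45 and 10.32 without TNF and 11.59, 10.70 and 12.40 with it. Its levels differed widely between replicates in both groups, replicate 3 being highest each time, yet the groups did not overlap and the paired rises were 2.57, 2.25 and 2.07. The fit gave 4.91-fold (log2 difference 2.30 ± 0.19, adjusted p = 0.00340, and 0.514 without the block).

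The remaining called chemokines were Ccl20, the ligand of CCR6, Ccl3, a macrophage inflammatory protein, and Cxcl1, a second neutrophil attractant. Ccl20 rose 3.14-fold (log2 difference 1.65 ± 0.09, adjusted p = 0.000334). Ccl3 rose 2.67-fold (log2 difference 1.42 ± 0.12, adjusted p = 0.00332). Cxcl1 stood at 12.26, 12.22 and 12.07 without TNF and 13.25, 13.48 and 13.13 with it, and the groups did not overlap. It rose 2.15-fold (log2 difference 1.10 ± 0.09, adjusted p = 0.00303). The members next in size did not pass the test: Ccl9 (0.87, adjusted p = 0.611), Cx3cl1 (0.67, adjusted p = 0.0508), Ccl5 (0.54, adjusted p = 0.0848) and Cxcl16 (0.52, adjusted p = 0.0914), named after their values were seen.

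Windows upstream of chemokine genes are printed because they hold the NF-kB consensus, whose promoter counts are given further on. Capitals mark the consensus on either strand, and the longer runs in capitals are overlapping matches. The windows come from RefSeq promoters (build GRCm38.p6, each from 250 bases before to 50 after the annotated start) and end before the start. These windows and those printed further on were chosen after the matches were seen.
Cxcl2, chr5:90903779-90903858, plus strand: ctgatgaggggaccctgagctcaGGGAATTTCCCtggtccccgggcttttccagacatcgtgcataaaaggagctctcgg
Cxcl1, chr5:90891125-90891204, plus strand: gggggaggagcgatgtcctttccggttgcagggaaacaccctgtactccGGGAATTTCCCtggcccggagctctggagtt
Cxcl10, chr5:92348960-92349059, minus strand: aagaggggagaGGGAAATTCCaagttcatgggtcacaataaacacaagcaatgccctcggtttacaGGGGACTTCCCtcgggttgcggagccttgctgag
Ccl20, chr1:83116646-83116725, plus strand: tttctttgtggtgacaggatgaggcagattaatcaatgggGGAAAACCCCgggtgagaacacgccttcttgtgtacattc
Cxcl2 and Cxcl1, on the same strand of the same chromosome, share the run of 11 bases in capitals, which begins 97 bases before the start of Cxcl2 and 71 bases before that of Cxcl1. Cxcl10 holds matches beginning 159, 104 and 103 bases before its start, and the match of Ccl20 lies on the opposite strand, 80 bases before the start. A match describes the letters and does not show that the site is bound.

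**Figure D2:**
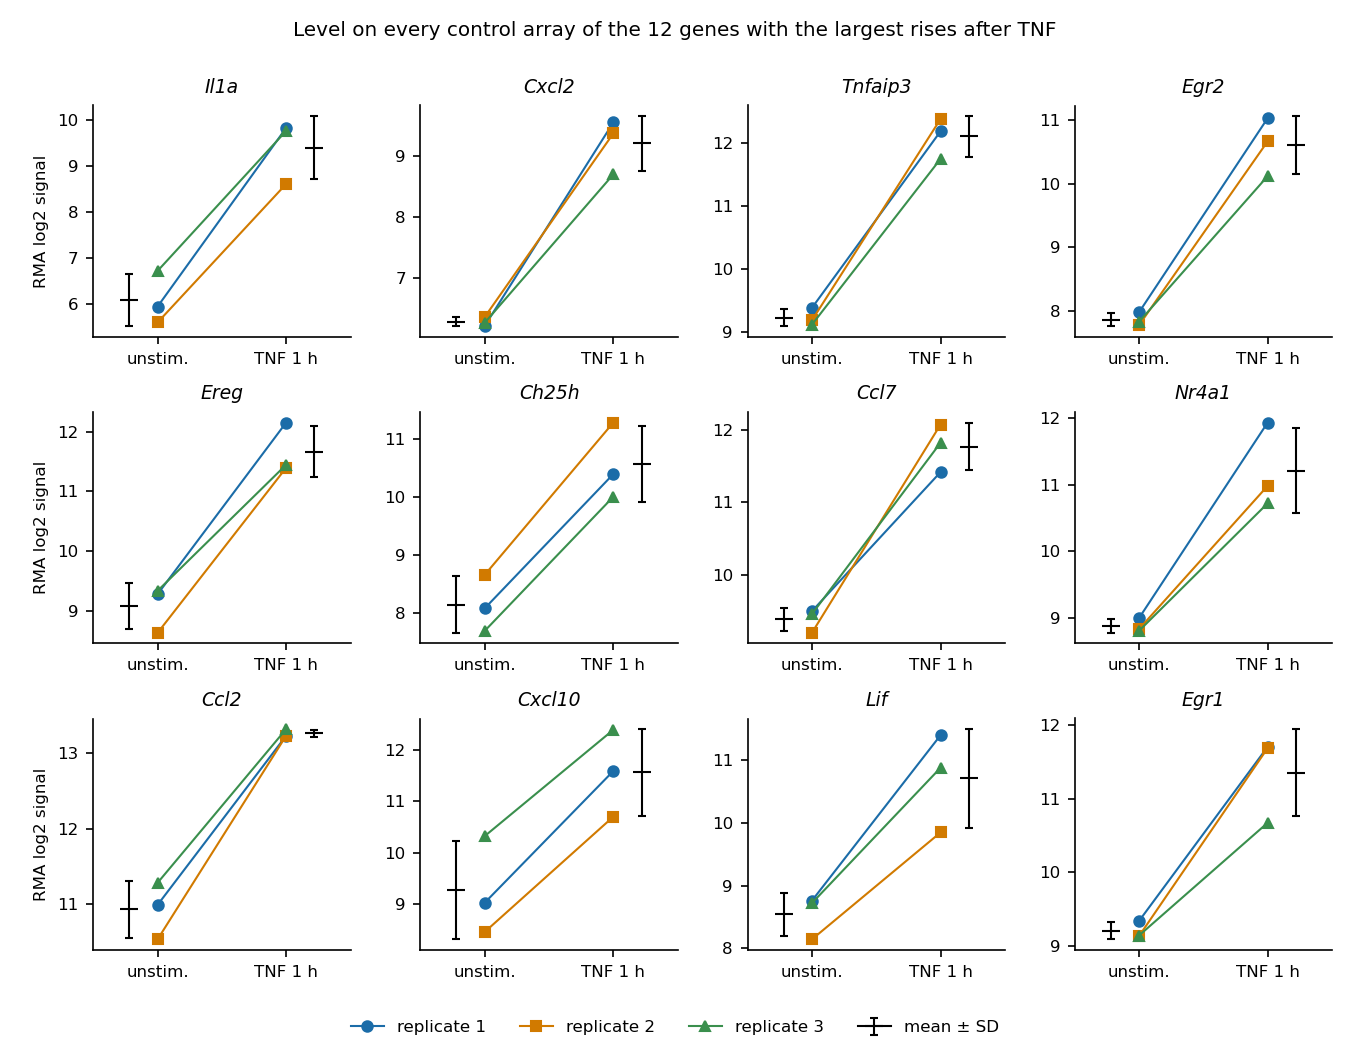
RMA log2 signal of the 12 genes with the largest rises on each unstimulated array and each array treated with TNF for 1 h, joined by replicate (circles, squares and triangles for replicates 1, 2 and 3), with the mean and SD of 3 arrays in black. Each panel has its own y axis, which does not start at 0. In all 12 panels the 3 TNF-treated arrays lie above the 3 unstimulated arrays.

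Among cytokines and growth factors, 7 of 50 measured genes were called higher and 0 lower, against 0.366% of all genes called higher. Of the 7, 3 were called without the block too (median difference of the list 0.08, 38 above 0). Il1a, the alarmin interleukin-1α, had the largest measured difference of all genes and stood at 5.93, 5.59 and 6.71 without TNF and 9.82, 8.60 and 9.76 with it. Replicate 2 was the lowest in both groups, the unstimulated arrays of replicates 1 and 2 lay below the first quartile, and the groups did not overlap. Il1a rose 9.97-fold (log2 difference 3.32 ± 0.31, adjusted p = 0.00587), with paired rises of 3.89, 3.01 and 3.05. Whether its unstimulated level exceeded background was not tested, so its fold and its rank are uncertain. Ereg, a ligand of the epidermal growth factor receptor, stood at 9.27, 8.63 and 9.33 without TNF and 12.16, 11.40 and 11.45 with it. The arrays of replicates 1 and 3 started alike, while the TNF-treated array of replicate 1 was the highest. Ereg rose 6.02-fold (log2 difference 2.59 ± 0.15, adjusted p = 0.000334).

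Lif, a cytokine of the interleukin-6 family, stood at 8.76, 8.14 and 8.72 without TNF and 11.40, 9.85 and 10.88 with it. Replicate 2 was again lowest in both groups, which did not overlap. Lif rose 4.51-fold (log2 difference 2.17 ± 0.21, adjusted p = 0.00653, and 0.532 without the block). Il6 itself stood at 10.07, 9.26 and 8.88 without TNF and 11.61, 11.54 and 10.50 with it. Its unstimulated level was highest in replicate 1, and the TNF-treated array of replicate 3 lay closest to it. Il6 rose 3.52-fold (log2 difference 1.81 ± 0.15, adjusted p = 0.00349, and 0.279 without the block). Adm, the vasodilator peptide adrenomedullin, rose 3.32-fold (log2 difference 1.73 ± 0.14, adjusted p = 0.00340). Csf3, which drives granulocyte production, rose 2.32-fold (log2 difference 1.21 ± 0.17, adjusted p = 0.0321, and 0.162 without the block), and Tslp, an epithelial and stromal alarmin, rose 1.69-fold (log2 difference 0.76 ± 0.11, adjusted p = 0.0384, and 0.860 without the block).

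Csf2, Tnf and Il1b did not pass the test and were picked after their values were seen. Csf2, the granulocyte-macrophage growth factor, stood at 6.79, 7.13 and 6.76 without TNF and 8.70, 7.74 and 8.71 with it. All 3 TNF-treated arrays lay above the unstimulated ones, but the paired differences were uneven (1.90, 0.61 and 1.95), and the difference of 1.49 ± 0.33 did not pass (adjusted p = 0.214). Tnf itself stood at 6.64, 6.56 and 6.70 without TNF and 6.70, 6.70 and 6.70 with it, a difference of 0.07. Whether the level of Tnf exceeded background on any of these arrays was not tested, so this difference does not show that Tnf failed to respond. Its groups overlapped, as did those of Il1b, which differed by -0.02. The Il6 window shown here holds the NF-kB consensus beginning 44 bases before the start.
Il6, chr5:30013034-30013113, plus strand: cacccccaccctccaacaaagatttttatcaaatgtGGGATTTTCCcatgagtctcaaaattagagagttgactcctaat

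Of 29 genes of TNF receptor signalling, 2 were called higher (1 without the block) and 0 lower, against 0.366% of all genes called higher, with a median difference of 0.05. Birc3, which encodes the ubiquitin ligase cIAP2 of the receptor complex, stood at 9.55, 9.59 and 9.43 without TNF and 10.66, 10.44 and 10.47 with it. The groups were separated, with nearly equal unstimulated levels, and Birc3 rose by 1.00 ± 0.10 on the log2 scale (adjusted p = 0.00859). Map3k8, the kinase TPL2 that leads to ERK, stood at 8.87, 9.21 and 8.44 without TNF and 9.70, 10.05 and 9.32 with it. Its replicates kept their order in both groups, so the paired rises were close (0.82, 0.85 and 0.88) although the levels spread, and the rise was 1.80-fold (log2 difference 0.85 ± 0.13, adjusted p = 0.0464, and 0.753 without the block). The receptor gene Tnfrsf1a stood at 11.57, 11.79 and 11.28 without TNF and 11.44, 11.75 and 11.21 with it, a difference of -0.08 that did not pass the test (picked after its values were seen).

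The NF-kB subunits and IkB inhibitors had the highest median difference of the 12 lists. All 10 measured members lay above 0, with a median difference of 0.52. Called higher were 5 (3 without the block) and lower 0, against 0.366% of all genes called higher. The inhibitors led. Nfkbie, which encodes IkBε, stood at 9.54, 9.38 and 9.65 without TNF and 11.33, 11.06 and 11.18 with it. The 3 arrays of each group lay close together and far from the other group, and Nfkbie rose 3.18-fold (log2 difference 1.67 ± 0.06, adjusted p = 0.000108). Nfkbia, which encodes IkBα, stood at 11.80, 11.57 and 11.76 without TNF and 13.10, 13.17 and 13.01 with it. Its TNF-treated arrays lay close together, well above the unstimulated ones, and it rose 2.61-fold (log2 difference 1.38 ± 0.08, adjusted p = 0.000334).

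Nfkbiz, the nuclear IkBζ that assists a subset of NF-kB targets, rose 1.88-fold (log2 difference 0.91 ± 0.09, adjusted p = 0.00732). Smaller called rises were those of Nfkbib, which encodes IkBβ, and of Nfkb2, which encodes the p100 precursor. Nfkbib rose 1.39-fold (log2 difference 0.48 ± 0.05, adjusted p = 0.0129, and 0.133 without the block) and Nfkb2 rose 1.37-fold (log2 difference 0.45 ± 0.07, adjusted p = 0.0417, and 0.752 without the block). The subunit genes Rel (0.83, adjusted p = 0.108) and Relb (0.56, adjusted p = 0.0848) were higher on every TNF-treated array and did not pass the test, and they were picked after their values were seen. Nfkb1 was not analysed here. The windows of both leading inhibitors hold the NF-kB consensus, beginning 29 bases before the start of Nfkbia and 106 bases before that of Nfkbie.
Nfkbia, chr12:55492648-55492727, minus strand: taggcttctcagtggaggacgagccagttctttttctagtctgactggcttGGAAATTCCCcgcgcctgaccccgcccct
Nfkbie, chr17:45555580-45555659, plus strand: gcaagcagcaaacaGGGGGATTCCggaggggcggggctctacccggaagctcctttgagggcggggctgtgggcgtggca

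Negative feedback regulators beyond the IkB genes had 10 of 40 members called higher and 0 lower, against 0.366% of all genes called higher. Of the 10, 4 were called without the block too (median difference of the list 0.19, 27 above 0). Tnfaip3 encodes A20, the ubiquitin-editing enzyme that dismantles the TNF receptor complex, and stood at 9.38, 9.18 and 9.11 without TNF and 12.18, 12.38 and 11.74 with it. Unstimulated arrays lay within a narrow range, and the lowest TNF-treated array was that of replicate 3. Tnfaip3 rose 7.37-fold (log2 difference 2.88 ± 0.12, adjusted p = 0.000108). Its binding partners Tnip3 and Tnip1 were called as well. Tnip3 stood at 8.82, 9.47 and 8.31 without TNF and 9.68, 9.97 and 9.29 with it, so the groups overlapped while every replicate rose, and the fit gave 1.71-fold (log2 difference 0.78 ± 0.09, adjusted p = 0.0119, and 1.00 without the block). Tnip1 rose 1.65-fold (log2 difference 0.72 ± 0.09, adjusted p = 0.0162), and its window holds overlapping matches on both strands, the first beginning 58 bases before the start.
Tnip1, chr11:54962941-54963020, minus strand: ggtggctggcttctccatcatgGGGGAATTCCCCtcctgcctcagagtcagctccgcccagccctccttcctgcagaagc

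The other called members of the feedback list act on kinases, receptors or transcripts. They were Ier3 (0.94), an early stress gene, Dusp6 (0.91) and Dusp8 (0.66), MAP kinase phosphatases, Errfi1 (0.82), an inhibitor of the epidermal growth factor receptor, Cish (0.48), a suppressor of cytokine signalling, Zfp36l2 (0.39), which promotes decay of AU-rich transcripts, and Trib1 (0.36), a pseudokinase. Of these, Ier3 and Zfp36l2 were called without the block. A second transcript cluster of Dusp8 differed by 0.57. Zfp36, which encodes tristetraprolin, stood at 8.84, 8.99 and 8.60 without TNF and 9.39, 10.50 and 9.33 with it. Its paired differences were 0.54, 1.52 and 0.74, the groups did not overlap, and the difference of 0.93 did not pass (adjusted p = 0.127). Rgs2, a brake on G protein signalling, stood at 7.52, 7.62 and 6.88 without TNF and 6.80, 6.63 and 6.34 with it. It was lower in every replicate without passing the test (-0.75, adjusted p = 0.0694), and both were picked after their values were seen.

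Immediate early transcription factors had 11 of 40 members called higher and 0 lower, against 0.366% of all genes called higher. Of the 11, 4 were called without the block (median difference of the list 0.33, 34 above 0). The median over the list was 0.46, 0.21 and 0.29 in replicates 1, 2 and 3. Egr2, a zinc finger factor, stood at 7.97, 7.77 and 7.82 without TNF and 11.03, 10.67 and 10.12 with it. The unstimulated arrays were close, and the TNF-treated arrays spread over a wider range, with replicate 3 lowest. Egr2 rose 6.73-fold (log2 difference 2.75 ± 0.29, adjusted p = 0.00934). Egr1, its relative, stood at 9.34, 9.14 and 9.14 without TNF and 11.71, 11.69 and 10.68 with it. Replicate 3 again gave the lowest TNF-treated array, and Egr1 rose 4.44-fold (log2 difference 2.15 ± 0.22, adjusted p = 0.00839, and 0.0587 without the block).

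Nr4a1, an orphan nuclear receptor, stood at 8.99, 8.83 and 8.80 without TNF and 11.93, 10.98 and 10.72 with it. The groups did not overlap, and replicate 1 rose the most. Nr4a1 rose 5.06-fold (log2 difference 2.34 ± 0.34, adjusted p = 0.0415, and 0.338 without the block). Irf1, an interferon regulatory factor that also responds to NF-kB, stood at 10.86, 10.93 and 10.81 without TNF and 12.16, 12.36 and 12.18 with it. Its arrays lay close within each group, and it rose 2.58-fold (log2 difference 1.37 ± 0.08, adjusted p = 0.000334), while a second transcript cluster of Irf1 differed by 0.41. Btg2, an antiproliferative transcriptional cofactor, rose 2.73-fold (log2 difference 1.45 ± 0.21, adjusted p = 0.0437, and 0.162 without the block).

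Smaller rises were called for subunits of AP-1, factors that join Fos and Jun relatives. Called were Fosl1 (0.86), Jun (0.81), Junb (0.77) and Atf3 (0.72), together with Maff (0.84), a small Maf factor, and Ier2 (0.88), a nuclear early response protein. Of these 6, Junb and Atf3 were called without the block. Fos, the AP-1 partner known as a fast serum-response gene, stood at 7.75, 7.52 and 7.63 without TNF and 8.48, 8.80 and 7.76 with it. All 3 TNF-treated arrays lay above the unstimulated ones, replicate 3 by little, and the difference of 0.71 ± 0.21 did not pass (adjusted p = 0.570). Egr3 likewise had positive but unequal paired differences (1.71, 0.90 and 0.33) without passing (adjusted p = 0.446). Fos and Egr3 were picked after their values were seen.

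Other immediate early genes had 10 of 28 members called higher and 0 lower, against 0.366% of all genes called higher. Of the 10, 2 were called without the block (median difference of the list 0.47, 27 above 0). Rnd1, a small GTPase that loosens the actin cytoskeleton, rose 3.17-fold (log2 difference 1.67 ± 0.11, adjusted p = 0.000689). Ptgs2, which encodes cyclooxygenase-2 of prostaglandin synthesis, stood at 12.44, 11.61 and 12.43 without TNF and 13.79, 13.49 and 13.41 with it. Its unstimulated array of replicate 2 was the lowest, and it rose 2.65-fold (log2 difference 1.40 ± 0.15, adjusted p = 0.00865, and 0.143 without the block). Rgs16, a regulator of G protein signalling, rose 2.55-fold (log2 difference 1.35 ± 0.13, adjusted p = 0.00587, and 0.136 without the block), and Gem, another small GTPase, rose 2.04-fold (log2 difference 1.03 ± 0.10, adjusted p = 0.00638, and 0.139 without the block).

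Further called members were Phlda1 (0.97), Plk3 (0.93), Nuak2 (0.74), Sik1 (0.64), Gadd45a (0.60) and Gadd45b (0.50). Plk3, Nuak2 and Sik1 encode kinases, and the Gadd45 genes encode stress sensors that act on MAP kinase kinases. Gadd45b was the one among these 6 called without the block, and its 3 arrays nearly coincided in each group, at 11.44, 11.46 and 11.44 without TNF and 11.95, 11.93 and 11.94 with it. Gadd45g, the third family member, stood at 10.23, 10.42 and 10.18 without TNF and 9.81, 9.52 and 9.71 with it. It was lower on every TNF-treated array, and the difference of -0.60 did not pass the test (adjusted p = 0.0991). It was picked after its values were seen.

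**Figure D3:**
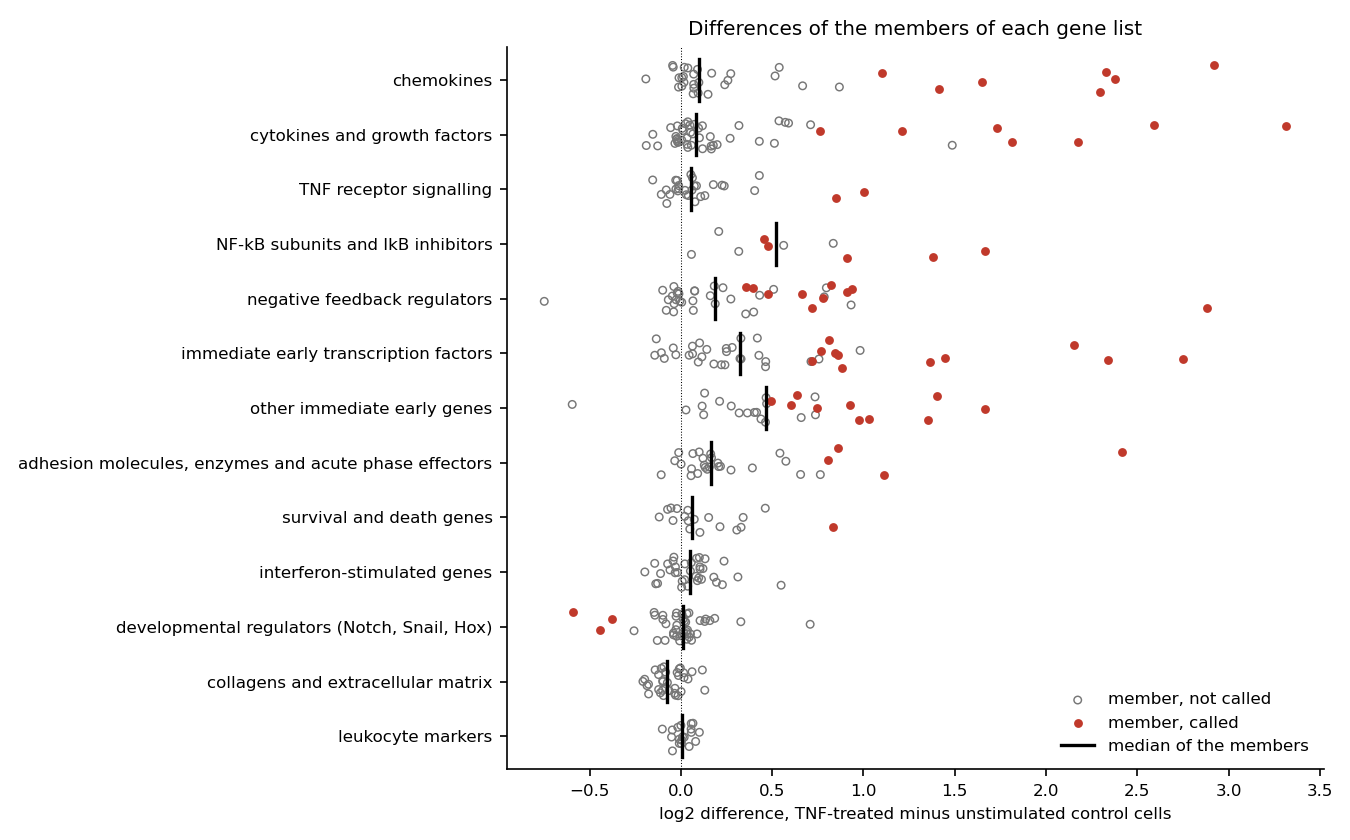
Log2 difference between TNF-treated and unstimulated control cells (x axis) for every measured member of the 12 gene lists and of the leukocyte markers (rows), with called members filled, other members open and the median of each list as a black bar. The vertical scatter within a row carries no meaning. The 7 called chemokines lie between 1.10 and 2.92, against a median of 0.10 for their list, while the leukocyte markers lie between -0.10 and 0.10.

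Adhesion molecules, enzymes and acute phase effectors had 4 of 29 members called higher (2 without the block) and 0 lower. The median was 0.16, and 0.366% of all genes were called higher. Ch25h makes 25-hydroxycholesterol, an oxysterol that restrains sterol synthesis and viral entry, and stood at 8.08, 8.65 and 7.69 without TNF and 10.39, 11.28 and 10.00 with it. Its replicates kept their order in both groups, with replicate 2 highest. The paired rises were 2.32, 2.63 and 2.31, and Ch25h rose 5.35-fold (log2 difference 2.42 ± 0.13, adjusted p = 0.000334, and 0.191 without the block). Ptges, the synthase of prostaglandin E2, rose 2.16-fold (log2 difference 1.11 ± 0.11, adjusted p = 0.00636). Gch1, which starts the synthesis of tetrahydrobiopterin, rose 1.81-fold (log2 difference 0.86 ± 0.07, adjusted p = 0.00303, and 0.287 without the block) from a level below the first quartile on every unstimulated array. Tnfaip2, a TNF-induced gene of membrane remodelling, rose 1.75-fold (log2 difference 0.81 ± 0.11, adjusted p = 0.0368).

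The adhesion molecule Vcam1 stood at 11.39, 11.57 and 11.07 without TNF and 12.11, 12.22 and 11.98 with it. It was higher on every TNF-treated array and did not pass the test (0.76, adjusted p = 0.104). Icam1 differed by 0.16, with overlapping groups. Both were picked after their values were seen. The Ch25h window is shown because it holds the cyclic AMP response element rather than the NF-kB consensus, 61 bases before the start.
Ch25h, chr19:34475149-34475228, minus strand: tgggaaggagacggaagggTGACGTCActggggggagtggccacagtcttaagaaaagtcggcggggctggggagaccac

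Survival and death genes gave 1 called rise among 18 (0 without the block) and 0 falls. The median was 0.06, and 0.366% of all genes were called higher. Fas, the death receptor, stood at 10.33, 10.36 and 9.90 without TNF and 11.18, 11.20 and 10.72 with it. The paired rises were nearly equal (0.85, 0.84 and 0.82) although replicate 3 lay lower in both groups, and Fas rose 1.78-fold (log2 difference 0.83 ± 0.10, adjusted p = 0.0170, and 0.174 without the block). The member next in size was Bcl10 (0.46, adjusted p = 0.0652), an adaptor towards NF-kB, which did not pass the test.

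Interferon-stimulated genes, which respond to secreted interferons, gave 0 calls among 35 in the limma fit with the block and 0 without it. With 0.366% of all genes called higher, lists of this size would hold under 1 call at that share, so a count of 0 does not set them apart. Before adjustment 4 were higher and 1 lower at p under 0.05. The methods' t-test, which also requires a difference over 0.35, gave 0, and only Ifit1 differed by enough to be counted. The median was 0.05, and the largest differences were Ifit1 (0.55, adjusted p = 0.920) and Gbp3 (0.31, adjusted p = 0.770). Cxcl10 and Irf1, which interferons also induce, were counted in other lists and rose. Gbp2b, a guanylate-binding protein gene outside the lists that was picked after its values were seen, stood at 8.12, 7.96 and 8.15 without TNF and 8.90, 8.72 and 8.83 with it. Its groups did not overlap, and its difference of 0.74 did not pass the test with the block (adjusted p = 0.227) but did on the 6 control arrays with the block (adjusted p = 0.00612). Collagens and other matrix genes gave 0 calls among 33 in both limma fits, while before adjustment 0 were higher and 3 lower at p under 0.05. Their differences lay between -0.21 and 0.13, so none could reach the minimum of the methods' t-test. Their median was -0.07, and 7 of 33 lay above 0. The largest differences were those of the collagen I chains, Col1a1 (-0.21, adjusted p = 0.949) and Col1a2 (-0.20, adjusted p = 0.683). Of the listed genes, 5 of the interferon list and 2 of the matrix list were not analysed here.

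The called falls were few and shallow. Developmental regulators of the Notch, Snail and Hox families gave 0 rises and 3 falls among 42 members (0 falls without the block). Their median was 0.01, and 0.0305% of all genes were called lower. The list was chosen with earlier results of these data known, so its number of falls is not independent of them. Lfng, a glycosyltransferase that modifies Notch, stood at 10.25, 10.24 and 10.13 without TNF and 9.52, 9.75 and 9.58 with it. The groups did not overlap, and Lfng fell 1.51-fold (log2 difference -0.59 ± 0.08, adjusted p = 0.0341, and 0.258 without the block). Snai1, the zinc finger repressor of E-cadherin, stood at 11.20, 11.54 and 11.45 without TNF and 10.79, 11.00 and 11.06 with it. Every unstimulated array lay above every TNF-treated one, and Snai1 fell 1.36-fold (log2 difference -0.45 ± 0.06, adjusted p = 0.0193, and 0.795 without the block). Hoxa3, a homeobox factor, stood at 7.56, 7.70 and 7.67 without TNF and 7.13, 7.29 and 7.37 with it. Its groups did not overlap, and it fell 1.30-fold (log2 difference -0.38 ± 0.06, adjusted p = 0.0495, and 0.514 without the block). The related factor Snai2 differed by -0.15 and the fringe genes Mfng and Rfng by -0.02 and 0.01, none past the test. The largest difference of the list was positive and did not pass the test either: Twist2, a basic helix-loop-helix factor, stood at 9.80, 9.45 and 10.24 without TNF and 10.73, 9.68 and 11.21 with it, a difference of 0.71 (adjusted p = 0.147) with paired differences of 0.92, 0.23 and 0.97, and the groups overlapped. These 4 were picked after their values were seen. Before adjustment, 4 members of the list were higher and 4 lower at p under 0.05.

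The other 3 falls lay outside the lists. Ephb3, a receptor tyrosine kinase for ephrin B ligands, stood at 9.34, 9.76 and 9.12 without TNF and 8.61, 9.20 and 8.57 with it. The TNF-treated array of replicate 2 overlapped the unstimulated range, while each replicate fell, and Ephb3 fell 1.53-fold (log2 difference -0.61 ± 0.06, adjusted p = 0.00653, and 1.00 without the block). Zfp503, a zinc finger repressor, stood at 10.58, 10.79 and 10.16 without TNF and 10.02, 10.38 and 9.72 with it. Its groups overlapped and its replicates kept their order, with a fall of 1.38-fold (log2 difference -0.47 ± 0.05, adjusted p = 0.0142, and 1.00 without the block). Nynrin stood at 9.97, 10.24 and 9.91 without TNF and 9.38, 9.92 and 9.46 with it. The groups overlapped slightly, and Nynrin fell 1.37-fold (log2 difference -0.46 ± 0.07, adjusted p = 0.0441, and 1.00 without the block), while its other transcript clusters differed by -0.18 and -0.31. Larger negative differences did not pass the test. Vaultrc5, a vault RNA picked after its values were seen, stood at 9.74, 7.85 and 10.99 without TNF and 8.05, 8.26 and 9.10 with it, with replicate 2 higher and the others lower, and its difference of -1.06 came with a standard error of 0.49 (adjusted p = 0.976).

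**Figure D4:**
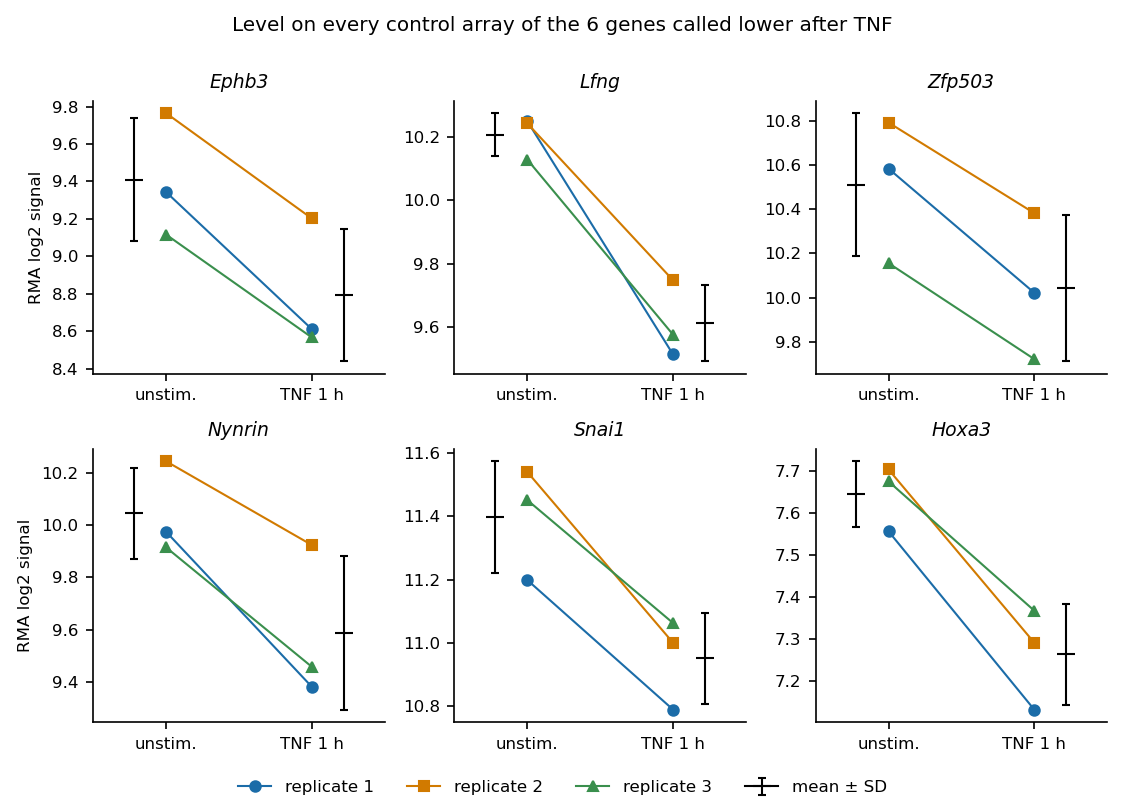
RMA log2 signal of the 6 genes called lower, on each unstimulated array and each array treated with TNF for 1 h, joined by replicate, with the mean and SD of 3 arrays in black. Each panel has its own y axis, which does not start at 0. The lines of all 3 replicates slope downward, while the groups overlap for Ephb3, Zfp503 and Nynrin.

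The lists held 388 of the 19698 genes tested. They were chosen with earlier results of these data known, so membership is not independent of the calls. Of the 72 genes called higher, 57 belonged to the lists and 15 did not. The largest of the latter was Slfn2, a schlafen family regulator of immune cell growth, which stood at 7.95, 7.56 and 7.62 without TNF and 9.82, 8.96 and 9.31 with it. Its groups lay apart in every replicate, and it rose 3.14-fold (log2 difference 1.65 ± 0.09, adjusted p = 0.000334, and 0.0882 without the block). Receptors among the rest were Hcar2 (0.96), Olr1 (0.89), Mc5r (0.86) and Ptger4 (0.67), which bind hydroxycarboxylic acids, oxidised low-density lipoprotein, melanocortins and prostaglandin E2. Olr1 and Il1f9 (0.72), an interleukin-1 family cytokine, started below the first quartile on every unstimulated array, and whether these levels and that of Gch1 exceeded background was not tested. The remaining rises were Stx11 (0.68), Slc25a25 (0.66), Neurl3 (0.59), Zfp599 (0.56), Rrad (0.50), Noct (0.49), Trim47 (0.46), 4921524J17Rik (0.45) and Rcan1 (0.39). Of the 15, Zfp599 and 4921524J17Rik were called without the block. Noct stood at 10.45, 10.00 and 10.16 without TNF and 11.02, 10.33 and 10.71 with it, so that its groups overlapped while each replicate rose.

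Large positive differences were not all called. Of 31 genes with a difference over 1, 29 were called, and Csf2 and Serpinb2 were not. Serpinb2, a serine protease inhibitor, stood at 9.81, 8.61 and 10.21 without TNF and 11.82, 9.74 and 11.28 with it. Its groups overlapped and its standard error was 0.54 (difference 1.40, adjusted p = 0.816). Of 75 genes over 0.7, 53 were called. Tlr2, a receptor for bacterial lipoproteins, lay just past the threshold at 9.18, 9.38 and 9.26 without TNF and 10.21, 10.40 and 10.17 with it. The groups were clearly apart and the difference was 0.99 (adjusted p = 0.0503). Serpinb2 and Tlr2 were picked after their values were seen. In all, 29 genes higher and 7 lower had an adjusted p between 0.05 and 0.1.

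**Figure D5:**
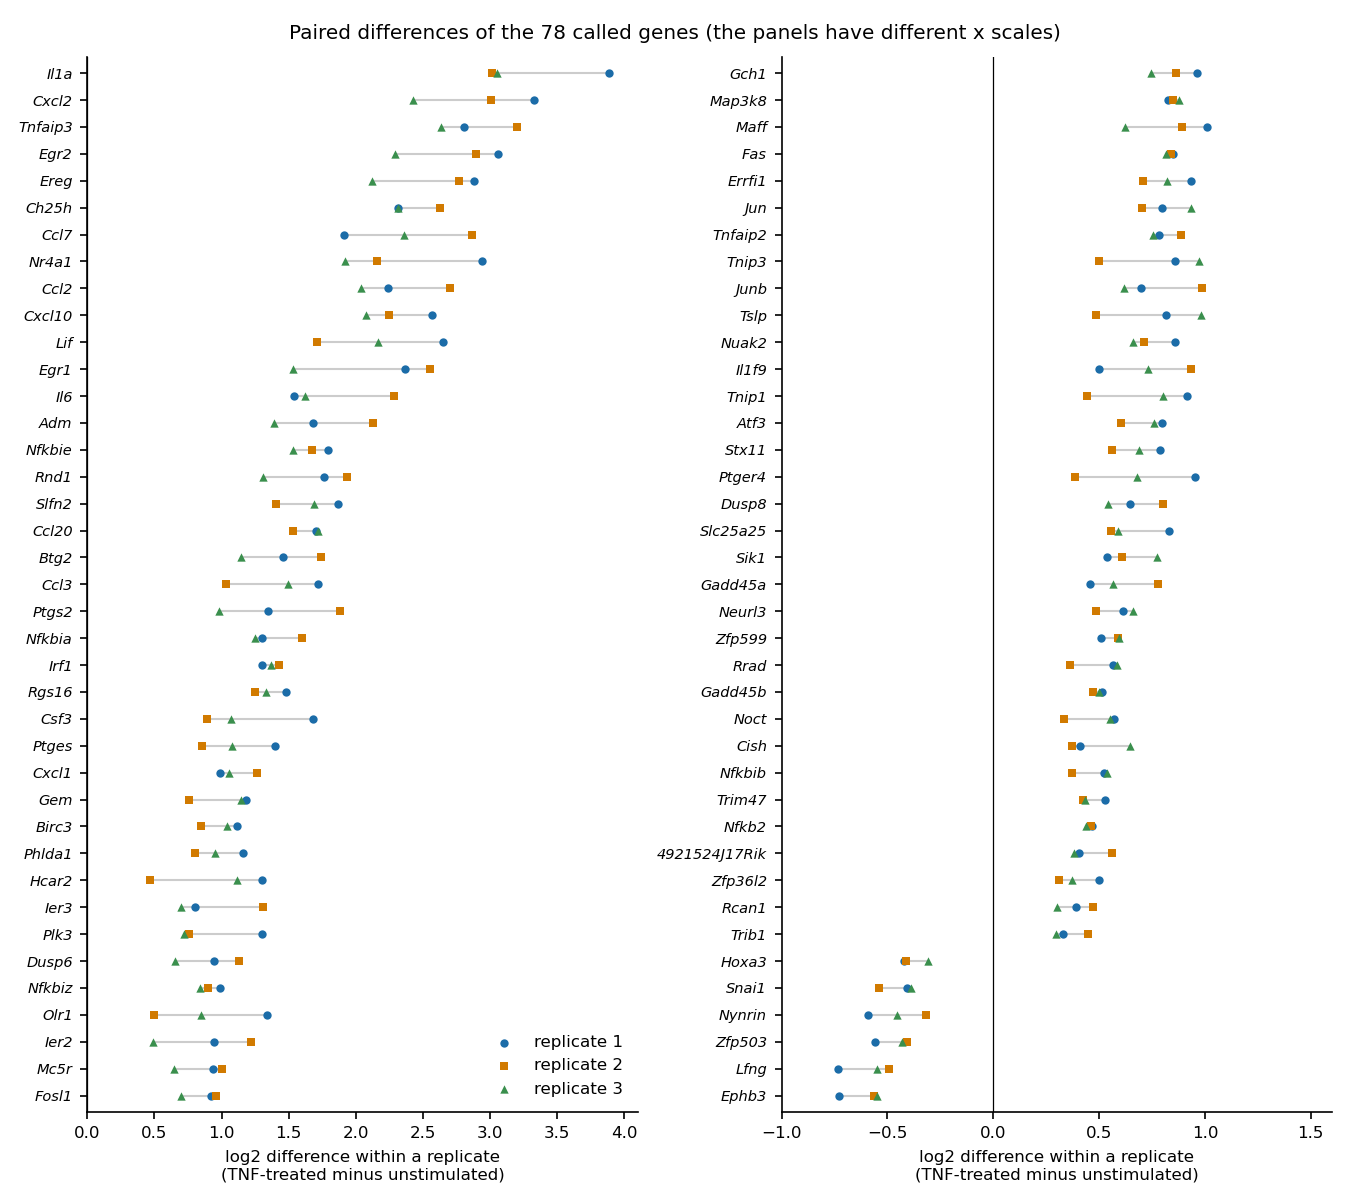
Log2 difference between the TNF-treated and the unstimulated array of each replicate (x axis, circles, squares and triangles for replicates 1, 2 and 3) for the 78 called genes (rows, ordered by mean difference). The left panel starts at 0 and the right panel has its own scale. All 3 replicates of every gene lie on the same side of 0, and replicates of a large rise can lie well apart, as for Lif (2.65, 1.71 and 2.17).

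Promoter sequence was set beside the calls, for the genes matched by gene identifier to the RefSeq promoter table (15382 of the genes tested, 51 of the 72 called higher and 6 of 6 called lower). Each motif was searched on both strands in windows of 300 bases, and a gene counted if any of its listed starts held it. A gene with more listed starts had more windows to match. Shares of windows are given over all matched genes and were not computed for the genes called higher. The NF-kB consensus was found for 21 of the 51 genes called higher (41.2%), against 11.0% of all matched genes and 9.54% of their 18902 windows. Of the 12 largest rises, 8 had a window and 6 of these held the consensus: Cxcl2, Tnfaip3, Egr2, Nr4a1, Cxcl10 and Lif. The AP-1 site TGANTCA was found for 10 of the 51 (19.6%) against 8.08% of all matched genes and 6.89% of windows, among them Il1a, Tnfaip3, Cxcl10, Lif and Il6. The cyclic AMP response element TGACGTCA was found for 7 (13.7%) against 2.73% of genes and 2.38% of windows, and these were Ch25h, Btg2, Maff, Errfi1, Dusp8, Slc25a25 and Rcan1.

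The EGR site GCGNGGGCG was found for 7 of the 51 (13.7%) against 9.34% of genes and 8.17% of windows, the TATA box TATAAA for 10 (19.6%) against 13.6% and 11.5%, and the serum response CArG box for 1, Egr2 (1.96%), against 1.63% and 1.41%. The NF-kB consensus can overlap itself on both strands, and no other overlap between motifs was removed. None of these 6 motifs was found in the windows of the 6 genes called lower. By list, the NF-kB consensus was found for 6 of 8 NF-kB and IkB genes with a window, 7 of 25 chemokines, 11 of 37 cytokines and growth factors, 9 of 30 immediate early transcription factors, 1 of 20 other immediate early genes, 7 of 32 feedback regulators, 7 of 21 effectors and 1 of 24 genes of TNF receptor signalling, called or not. Lists with 0 or 1 gene called higher held it as well, for 6 of 15 survival and death genes, 5 of 26 interferon-stimulated genes, 5 of 23 matrix genes and 4 of 30 developmental regulators. These shares are descriptions without a test, and a window that lacks a motif says nothing of sites elsewhere.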

How the data were processed

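Total RNA of subconfluent 3T3 cells was hybridised to Affymetrix mouse Gene 1.0 ST arrays. The labels name a Qiagen RNeasy kit, the study's methods a phenol-based extraction. The authors deposited log2 values obtained by RMA (background correction, quantile normalization and median polish of probes), with no RMA version in the labels. In 35.4% of genes at least 2 of the 6 control arrays held the same value, and 0 pairs of arrays were identical. Clusters were named from the platform annotation, for which the sources used here give no genome build. Of the clusters, 21319 have 1 symbol, 1430 several and 4275 none, and 930 genes had several clusters, of which the one with the highest mean was used.

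From these values, limma 3.58.1 (R 4.3.3; lmFit and eBayes, two-sided) was fitted to all 9 arrays with 1 mean per group and the replicate number as a block (4 residual degrees of freedom). P values were Benjamini-Hochberg adjusted over 19698 genes and called under 0.05. Same-numbered control arrays deviated together from their group means (correlations 0.579 to 0.724, against -0.566 to -0.0374 for other numbers). Deviations from a group mean sum to 0, so positive same-numbered values draw the others below 0. Same-numbered pairs with a knockdown array correlated less, from 0.210 to 0.388. Every same-numbered pair of the 9 arrays was over 0.1. The methods give replicates made on different days. The members, the 12 role lists (414 genes, 388 measured), the marker lists and the blocked fit were chosen with earlier results of these data known. Lists were described by counts and medians without a set test. Named were every gene called lower, every called list member, the 30 largest rises, the 2 largest differences of a list with under 2 calls, and other called genes with their difference. Genes outside this rule are stated as picked after their values were seen. Alternatives were the fit without the block, 6 arrays only, leaving out arrays or replicates, other normalizations, array weights, a trend in eBayes, averaged clusters, no dim genes and the methods' t-test. In counts by that t-test a gene also needed a difference over 0.35 in either direction. The study lists public arrays of another series for gene activation in TNF-treated fibroblasts, while the t-test here used the 6 control arrays. Promoter windows and motif matches came from RefSeq GRCm38.p6.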

Additional observations from a re-analysis of the deposited data

How the results depend on the processing

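All 78 called genes kept their direction under every alternative that tested them (3 were left out with the dim genes). With the replicate block the calls were 72 higher and 6 lower. Without the replicate block 27 and 0 were called, on the 6 control arrays without the block 15 and 0, with array weights 201 and 43, and by the methods' t-test after Benjamini-Hochberg adjustment 1 and 0. Of the 78 genes, 56 remained called on the 6 control arrays with the block, 27 without the block, and 0, 53 and 18 without replicates 1, 2 and 3. The causes were not tested. Each fit without a replicate had 2 residual degrees of freedom. The methods' t-test, run here on the 6 control arrays, gave 107 and 8 before adjustment. These are not the study's own counts of inducible genes. Other normalizations, the eBayes trend, averaged clusters, no dim genes and the 6 arrays with the block gave 67 to 76 higher and 5 to 7 lower.

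Without the replicate block the called members were 3 cytokines and growth factors, 1 gene of TNF receptor signalling, 3 NF-kB and IkB genes, 4 feedback regulators, 4 immediate early transcription factors, 2 other immediate early genes, 2 effectors, 0 survival genes and 0 lowered developmental regulators. With a replicate or a control array left out, the calls ran from 0 to 75 higher and 0 to 3 lower. By list they ran from 0 to 9 chemokines, 0 to 9 cytokines and growth factors, 0 to 2 genes of TNF receptor signalling, 0 to 5 NF-kB and IkB genes, 0 to 7 feedback regulators, 0 to 9 immediate early transcription factors, 0 to 9 other immediate early genes, 0 to 4 effectors, 0 to 1 survival genes and 0 to 1 lowered developmental regulators. The smallest called rise was 0.36, and arrays carry no read depth.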

Other observations

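Transcript clusters with several symbols or none name no gene and were tested apart. Of 5705 such clusters, 0 were called by limma with the block, and before adjustment 68 differed upward and 82 downward at p under 0.05.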
